A study of Homo sapiens with 6 samples.

Results

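TKTL1 (transketolase-like 1) was measured together with 7 other genes of the pentose phosphate pathway in SU-DHL-8 cells, an established line that was derived from a lymphoma of large B cells (DLBCL in the labels). The 8 genes, TKTL1, TKTL2, TKT, TALDO1, PGD, PGLS, RPIA and RPE, were taken by symbol from a deposited table of 35974 genes. All 8 are in the table, and all 8 were among the 20783 genes that passed the filter on low counts and were tested. TKTL1 was chosen by its measured values in this comparison, so its levels are described with no test. The 7 others were taken for their place in the pathway.

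RNA of cells treated with GSK3685032 (3 libraries), an inhibitor of the maintenance DNA methyltransferase DNMT1, was compared with RNA of cells given the solvent DMSO (3 libraries). All 6 libraries carry the genotype label DNMT1 wild type, come from this 1 line and were made from poly(A) RNA with the second cDNA strand marked. The treatment labels of GSK3685032 replicates 2 and 3 end in another digit (GSK3685033 and GSK3685034), while the series names GSK3685032 alone, so the 3 libraries were kept as 1 group. The sources used here give neither dose nor duration. They also do not say whether the 3 libraries of a treatment were grown as separate cultures; a p-value therefore reflects library-to-library spread that may be technical. In bulk RNA, fewer cells with a transcript and less of it per cell cannot be told apart.

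The pentose phosphate pathway branches from glycolysis at glucose 6-phosphate. Its oxidative branch makes NADPH, the electron donor for lipid synthesis and for reducing glutathione and thioredoxin, and ends in ribulose 5-phosphate. Its non-oxidative branch turns that sugar into ribose 5-phosphate, the precursor of nucleotides, and passes carbon units back to glycolysis through transketolase, which uses thiamine diphosphate, and transaldolase. Dividing B cells draw on both products. TKTL1 is a relative of transketolase that lacks a stretch of the cofactor-binding part of the enzyme; it is known chiefly from testis and from some tumours, and whether it is an active transketolase is debated.

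DNMT1 inhibition acts on methylation of the base C in CpG dinucleotides. The promoter sequences of TKTL1, TKT and TALDO1 are therefore shown with every CpG in capitals and all other bases in lower case. They are RefSeq sequences on build GRCh38.p14, 250 bases before to 50 bases after an annotated start, written 5′ to 3′ along the gene. TKTL1 has 2 such starts on the plus strand of chromosome X, the first at chrX:154295545-154295844 and an internal one at chrX:154304920-154305219. TKT lies on the minus strand at chr3:53255973-53256272 and TALDO1 on the plus strand at chr11:747214-747513.
TKTL1 first start: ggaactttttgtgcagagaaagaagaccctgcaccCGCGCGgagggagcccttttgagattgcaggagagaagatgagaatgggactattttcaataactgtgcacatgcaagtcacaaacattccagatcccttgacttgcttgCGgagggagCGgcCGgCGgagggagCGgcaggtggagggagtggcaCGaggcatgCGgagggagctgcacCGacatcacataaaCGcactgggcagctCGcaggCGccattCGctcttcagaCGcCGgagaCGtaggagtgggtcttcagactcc
TKTL1 internal start: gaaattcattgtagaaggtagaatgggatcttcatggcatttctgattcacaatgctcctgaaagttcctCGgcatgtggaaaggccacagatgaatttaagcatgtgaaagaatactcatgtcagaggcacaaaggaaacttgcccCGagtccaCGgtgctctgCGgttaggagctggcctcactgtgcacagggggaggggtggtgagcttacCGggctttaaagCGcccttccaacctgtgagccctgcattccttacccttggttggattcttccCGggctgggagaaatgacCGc
TKT: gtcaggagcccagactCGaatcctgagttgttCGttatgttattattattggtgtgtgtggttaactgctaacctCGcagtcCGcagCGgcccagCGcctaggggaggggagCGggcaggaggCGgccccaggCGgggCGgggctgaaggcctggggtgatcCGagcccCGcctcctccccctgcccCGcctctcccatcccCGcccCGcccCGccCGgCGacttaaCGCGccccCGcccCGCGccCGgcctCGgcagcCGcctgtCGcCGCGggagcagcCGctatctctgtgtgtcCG
TALDO1: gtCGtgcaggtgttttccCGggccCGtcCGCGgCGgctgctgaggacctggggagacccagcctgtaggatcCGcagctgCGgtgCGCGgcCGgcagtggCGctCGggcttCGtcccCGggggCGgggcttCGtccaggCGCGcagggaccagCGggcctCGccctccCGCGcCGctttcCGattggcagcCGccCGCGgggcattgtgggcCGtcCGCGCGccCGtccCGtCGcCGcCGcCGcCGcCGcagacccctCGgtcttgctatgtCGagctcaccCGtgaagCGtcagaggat

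The first TKTL1 promoter holds 18 CpGs and the internal one holds 8, while TKT holds 31 and TALDO1 holds 44. Among 35116 RefSeq promoters of the same length, the median was 14 CpGs, with quartiles of 4 and 28. By CpG number the first TKTL1 promoter stood at the 55.5th percentile, the internal one at the 39.3rd, TKT at the 79.3rd and TALDO1 at the 95.8th. Relative to what base composition alone would give, the ratio of observed to expected CpGs was 0.743 and 0.403 for the TKTL1 starts, 0.832 for TKT and 1.04 for TALDO1, against a median of 0.579 over all promoters. The remaining genes fell between them in CpG number, with 24 for TKTL2, 35 for PGD, 27 for PGLS, 29 for RPIA and 24 for RPE. TKTL1 therefore had the fewest CpGs of the 8 genes at either start. The motif searched was CG, which reads the same on both strands, and 96.0% of all promoters hold at least 1. Methylation was not measured in these libraries.

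TKTL1 was not detected with DMSO and was among the well-expressed genes with GSK3685032. TKTL1 (ENSG00000007350, GRCh38 chromosome X, 154295795 to 154330350, plus strand) reached 80.9, 74.5 and 80.5 FPKM (fragments per kilobase of exon, scaled to library size) in the GSK3685032 libraries and was listed at 0 in each of the 3 DMSO libraries. The estimated counts behind these values were 17671, 16166 and 16584 with GSK3685032, against 0, 0 and 0 with DMSO. Every GSK3685032 library was thus far above every DMSO library, and the GSK3685032 libraries lay close together, at 78.6 ± 3.57 FPKM (SD, n = 3). About 4 counts stand for 1 read pair in this table, so a floor of 3 read pairs is 12 counts. Against that floor over the DMSO group, TKTL1 was at least 4907-fold higher with GSK3685032, a bound of 12.26 on the log2 scale that covers counting error only.

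TKTL1 belonged to a large set in this respect. Genes of this kind pass the filter on low counts only through the GSK3685032 libraries, so the values that follow describe them and support nothing. Of the tested genes, 1809 (8.70%) had no count in any DMSO library, and their median level with GSK3685032 was 0.297 FPKM. TKTL1 ranked 3rd among them by mean FPKM, and 350th among all 35974 genes. Its coefficient of variation over the GSK3685032 libraries was 4.54%, while the 44 genes of that set with a mean of at least 10 FPKM had a median of 15.6%. No window of 50 bases of its annotated transcripts (0 of 3777) was found in a transcript of another gene, TKT included, so reads of TKTL1 and TKT are separable over such windows.

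**Figure D1:**
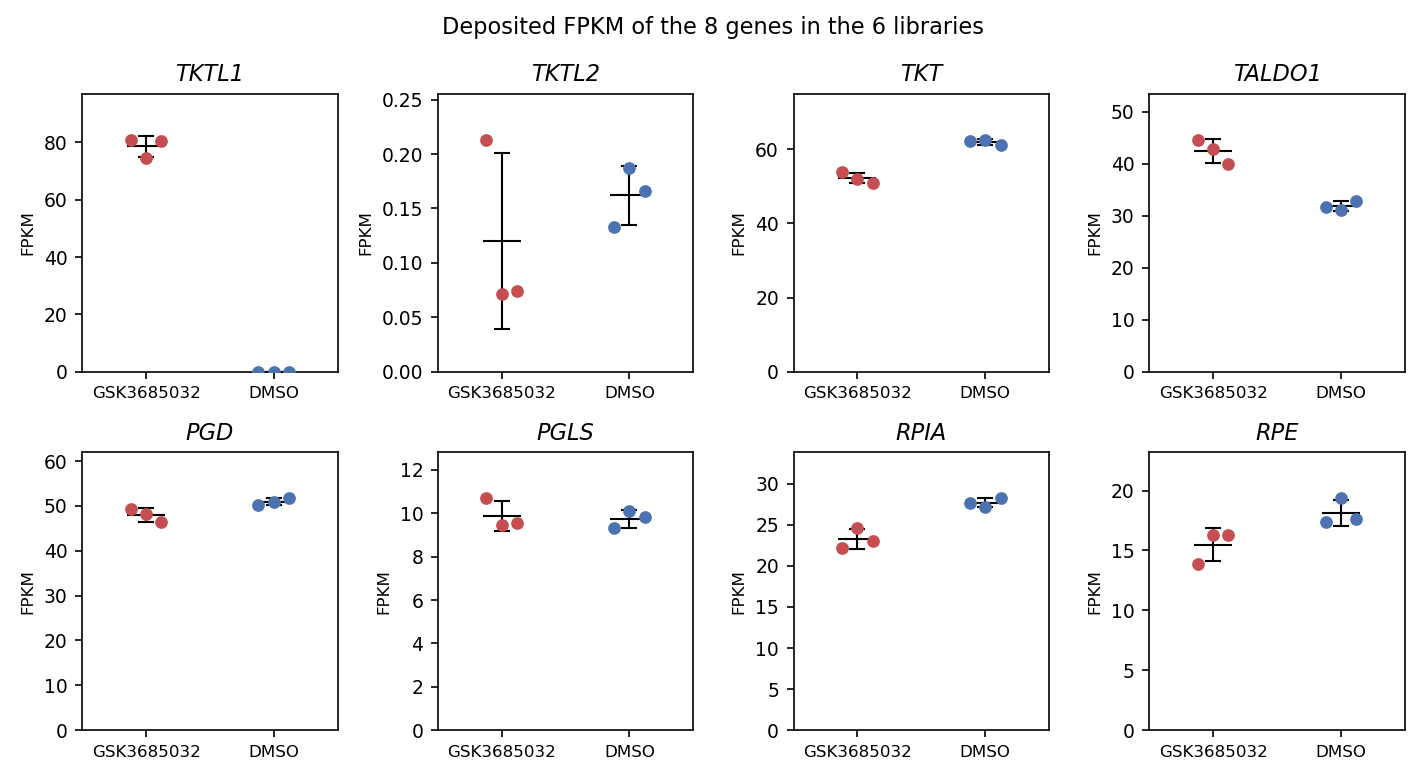
Deposited FPKM of the 8 genes, 1 panel a gene, with GSK3685032 at the left and DMSO at the right; points are libraries, and the lines are the mean and SD of 3 libraries on a vertical axis that starts at 0. TKTL1 lies between 74.5 and 80.9 FPKM with GSK3685032 and at 0 with DMSO, TALDO1 is higher with GSK3685032, and TKT, RPIA and RPE are lower.

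The genes whose FPKM lay nearest to that of TKTL1 over the 6 libraries were H3Y1, PNMA5, MAGEA4, GAGE12G, DAZL and GAGE2A. Likeness was the mean absolute difference of log2(FPKM + 0.5), with no test, since TKTL1 was chosen on this contrast. It measures closeness of level, not whether genes rise and fall together among the libraries of a group. All 6 nearest genes were listed at 0 in every DMSO library, which this measure and the choice of TKTL1 all but fix. H3Y1, a primate histone H3 variant, was the nearest, at a mean difference of 0.0791 and 82.0 ± 14.9 FPKM with GSK3685032. PNMA5 followed at 0.127 (66.0 ± 5.92 FPKM) and MAGEA4, a cancer-testis antigen, at 0.132 (75.4 ± 13.8 FPKM). DAZL, a germ cell RNA-binding protein, differed by 0.342 and reached 127 ± 16.8 FPKM. GAGE12G (0.256) and GAGE2A (0.394) are near-identical copies of a cancer-testis family, so their separate levels of 56.4 ± 15.2 and 55.8 ± 29.7 FPKM with GSK3685032 are uncertain. Of the 6 genes, 4 lie on the X chromosome, as TKTL1 does, both GAGE copies among them. The share of X-linked genes over the whole table was not taken, so this number is not read as a result. The RefSeq promoters of the 6 genes hold 3 (H3Y1), 33 (DAZL), 23 (PNMA5), 10 (MAGEA4) and 13 (both GAGE genes) CpGs.

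Around TKTL1 on the X chromosome, genes called higher and genes called lower lay close together. TEX28, a testis-expressed gene on the minus strand whose start overlaps that of TKTL1 by 0.058 kb, head to head, was listed at 0.0375, 0 and 0.0443 FPKM with GSK3685032 and at 0 in the 3 DMSO libraries. Its 11 counts in all left it below the filter, so the gene that shares the TKTL1 start was listed near 0 while TKTL1 reached 78.6 FPKM. Genes named TEX28P1 and TEX28P2 lie in the same region. Sharing of windows was not examined for TEX28, so its level is uncertain to that degree. Within 250 kb, 24 other genes of the table were counted, of which 18 were tested. Of these, 8 were higher and 7 lower with GSK3685032 and 3 were not called, where 38.1% of all tested genes were higher and 27.3% lower. The median log2 change was -0.02, against 0.14 over all tested genes. None of the 24 genes was at 0 counts in every DMSO library and also tested. All tested genes together include 1809 (8.70%) of that kind, which can only be higher, so the shares are not of like sets.

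FLNA, which encodes the actin cross-linker filamin A and is the nearest tested gene at 75.5 kb from the TKTL1 start, measured 50.0 ± 1.36 FPKM with GSK3685032 and 16.4 ± 0.596 FPKM with DMSO. Its log2 change was 1.60 (SE 0.0465, edgeR adjusted p = 1.22e-08), and all 3 GSK3685032 libraries lay above all 3 DMSO libraries. The other genes called higher included RPL10, a ribosomal protein, at 404 ± 4.37 against 214 ± 5.49 FPKM (log2 change 0.91), and PLXNA3, a semaphorin receptor, at 10.5 ± 0.631 against 4.93 ± 0.118 FPKM (1.08). RPL10 has many processed copies in the genome, and its level is uncertain to that degree. DNASE1L1 (log2 change 2.79) and TAFAZZIN, the cardiolipin remodelling enzyme (-0.30), overlap on opposite strands, and the sources used here do not say whether counting used strand. FAM3A (0.58) and IKBKG (0.29), the regulatory subunit of the NF-κB kinase, were called higher as well, as was ENSG00000280195 (1.22). ENSG00000280195, on the minus strand, lies within the span of RPL10 on the plus strand, and DNASE1L1 overlaps that span too. Their levels with GSK3685032, 6.30 and 0.887 FPKM against 404 FPKM for RPL10, are uncertain to that degree. IKBKG was not called in 5 of 17 alternatives, quantile normalization among them.

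Among the genes called lower near TKTL1, UBL4A, a chaperone for tail-anchored proteins, had the largest change. It measured 9.84 ± 1.16 FPKM with GSK3685032 and 22.9 ± 1.34 FPKM with DMSO (log2 change -1.23). FAM50A had a log2 change of -0.88 and SLC10A3 of -0.66, while ATP6AP1, a subunit of the vacuolar proton pump (-0.32), and EMD, the nuclear envelope protein emerin (-0.27), changed less. With upper-quartile scaling and with quantile normalization, EMD and ATP6AP1 were no longer called, and TAFAZZIN was lost under the first of these. LAGE3 (log2 change -0.52, edgeR adjusted p = 0.0502), ATP6AP1-DT (-0.56, 0.263) and FAM223A (0.23, 0.707) did not pass the test.

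**Figure D2:**
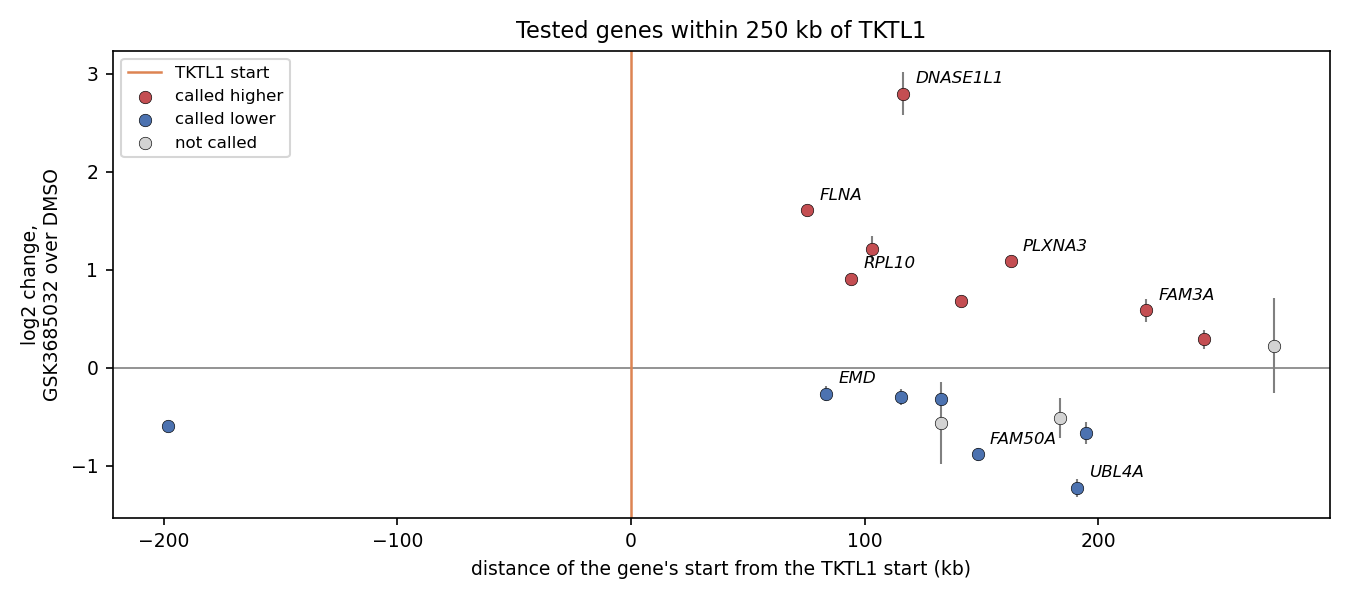
Log2 change of the 18 tested genes within 250 kb of TKTL1, plotted against the distance in kb of each gene's start from the TKTL1 start; bars are standard errors of the edgeR fit. FLNA at 1.60 and DNASE1L1 at 2.79 lie above 0 and UBL4A at -1.23 below it, and the 8 higher and 7 lower genes are interspersed along the region.

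Transketolase itself was lower with the inhibitor. TKT (ENSG00000163931, chromosome 3, 53224712 to 53256022, minus strand), the enzyme that carries the non-oxidative branch in most tissues, measured 53.7, 51.9 and 51.0 FPKM with GSK3685032 and 62.1, 62.5 and 61.0 FPKM with DMSO. Each GSK3685032 library was below each DMSO library. The log2 change was -0.25 (SE 0.0421, edgeR adjusted p = 4.98e-04, two-sided, adjusted over all tested genes). With upper-quartile scaling the value was -0.08 and the call was lost (edgeR adjusted p = 0.104).

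TKTL2 (ENSG00000151005, chromosome 4, 163471095 to 163473754, minus strand), a copy with a single exon, was near the detection limit in every library. It measured 0.213, 0.0716 and 0.0745 FPKM with GSK3685032 and 0.133, 0.187 and 0.166 FPKM with DMSO, from counts of 36, 12 and 12, against 22, 40 and 32. The groups overlapped, and TKTL2 did not pass the test (log2 change -0.41, SE 0.528, edgeR adjusted p = 0.526). Quantile normalization gave -0.40 and a call (limma adjusted p = 0.0114), while GSK3685032 replicate 1 alone gave 0.43 and the fit without it -1.13.

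Summed over the 3 genes, transketolase transcripts measured 131 ± 4.20 FPKM with GSK3685032 and 62.1 ± 0.783 FPKM with DMSO. TKTL1 made up 60.0%, 58.9% and 61.2% of that sum in the GSK3685032 libraries (60.0 ± 1.14, SD, n = 3) and 0% in the DMSO libraries. The share depends on the length used. The deposited FPKM implies a length of 10.3 kb for TKT, close to the 9.507 kb that all its GENCODE release 29 exons cover together, while its principal transcript is 3.01 kb long. For TKTL1 these lengths are 3.83, 3.65 and 2.642 kb. Per kilobase of the principal transcripts, a scale chosen after the values were seen, TKTL1 was 38.9 ± 1.12% of the 3 genes with GSK3685032, and by counts alone it was 35.8 ± 1.09%. TKTL1 exceeded TKT on the FPKM scale only, at a ratio of 1.51 ± 0.0714.

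**Figure D3:**
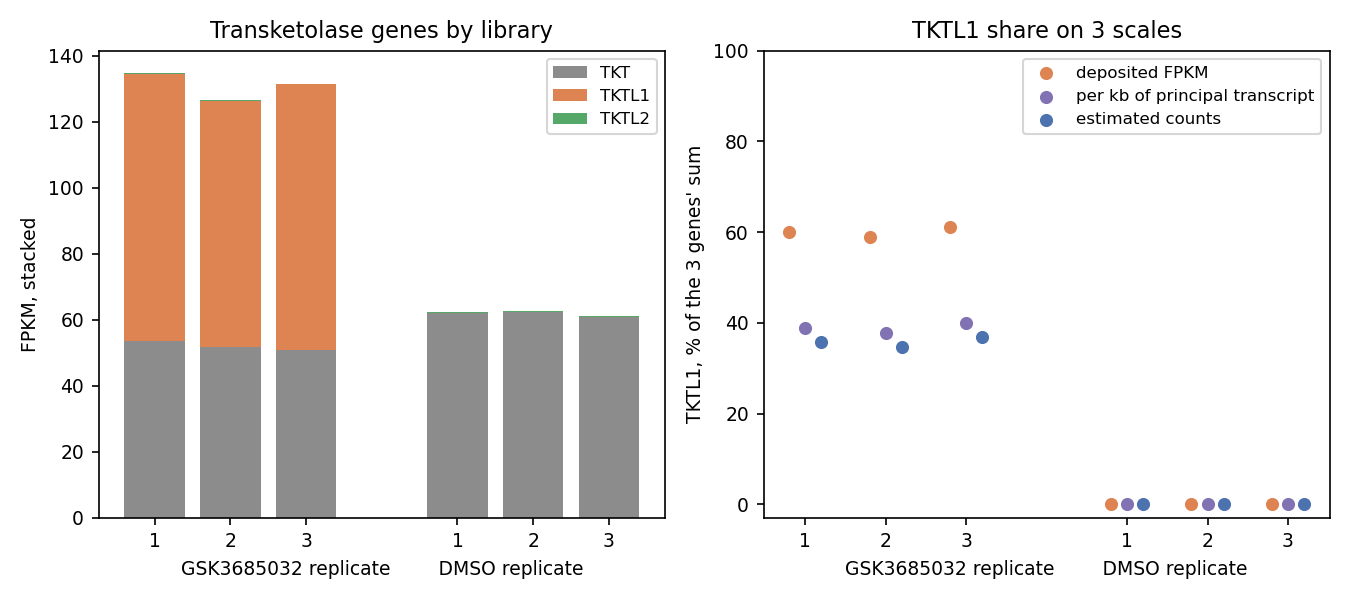
Left, FPKM of TKT, TKTL1 and TKTL2 stacked for each library, GSK3685032 at the left and DMSO at the right. Right, TKTL1 as a percentage of the 3 genes on 3 scales; in the GSK3685032 libraries it lies near 60.0% by deposited FPKM, near 38.9% per kb of principal transcript and near 35.8% by counts, and it is 0 with DMSO.

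Transaldolase moved the other way from TKT. TALDO1 (ENSG00000177156, chromosome 11, 747415 to 765012, plus strand), which shares the sugar-interconverting steps with transketolase, measured 44.6, 42.9 and 39.9 FPKM with GSK3685032 and 31.6, 31.0 and 32.9 FPKM with DMSO. All 3 GSK3685032 libraries were above all 3 DMSO libraries, and on the log2 scale the difference was 0.41 (SE 0.0564, edgeR adjusted p = 1.40e-04). TALDO1 was called higher in all 17 alternative fits, at log2 changes of 0.36 to 0.59. The ratio of TALDO1 to TKT, which a scaling factor per library cannot move, was 0.830, 0.825 and 0.782 with GSK3685032 and 0.509, 0.496 and 0.539 with DMSO. The means of these ratios were 0.812 ± 0.0261 and 0.515 ± 0.0221 (SD, n = 3 each). That the ratios did not overlap follows from the FPKM of both genes given above and adds no support. The smallest two-sided p that an exact permutation test of 3 against 3 libraries allows is 0.1, so no test of the ratio is given.

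The isomerase and the epimerase that act on ribulose 5-phosphate were both lower. RPIA (ENSG00000153574, chromosome 2, 88691673 to 88750929, plus strand), which makes ribose 5-phosphate, measured 22.1, 24.6 and 23.1 FPKM with GSK3685032 and 27.7, 27.2 and 28.2 FPKM with DMSO. The groups did not overlap, and the log2 change was -0.26 (SE 0.0517, edgeR adjusted p = 0.00148). RPE (ENSG00000197713, chromosome 2, 210002565 to 210022260, plus strand), which makes xylulose 5-phosphate, the carbon donor of transketolase, measured 13.9, 16.3 and 16.3 FPKM with GSK3685032 and 17.4, 19.3 and 17.6 FPKM with DMSO. Its log2 change was -0.23 (SE 0.0678, edgeR adjusted p = 0.0126), with all GSK3685032 libraries below all DMSO libraries. Of 3990 windows of 50 bases in RPE transcripts, 405 (10.2%) occur in transcripts of other genes.

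The calls of RPIA and RPE depended on the scaling. With upper-quartile scaling RPIA was at -0.09 and RPE at -0.06, and with quantile normalization they were at -0.05 and -0.01; neither gene was called under these settings. RPE was also not called without DMSO replicate 2 (-0.18, edgeR adjusted p = 0.0561) or when genes had to reach 1 FPKM in 3 libraries (-0.14, 0.104).

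In the oxidative branch, neither of the genes described here passed the test. PGD (ENSG00000142657, chromosome 1, 10398592 to 10419808, plus strand), the dehydrogenase that yields NADPH and ribulose 5-phosphate, measured 49.3, 48.2 and 46.4 FPKM with GSK3685032 and 50.1, 50.9 and 51.7 FPKM with DMSO. The groups did not overlap, yet PGD did not pass the test (edgeR adjusted p = 0.103), with a log2 change of -0.09 and an SE of 0.0454. The value was 0.08 with upper-quartile scaling and 0.07 with quantile normalization, on the other side of 0, and without GSK3685032 replicate 1 PGD was called at -0.13 (edgeR adjusted p = 0.0317). A processed copy, PGDP1, shares 129 of its 3099 windows of 50 bases (4.16%). PGLS (ENSG00000130313, chromosome 19, 17511636 to 17521043, plus strand), the lactonase before PGD, measured 10.7, 9.44 and 9.53 FPKM with GSK3685032 and 9.31, 10.1 and 9.82 FPKM with DMSO. These overlapped, and PGLS did not pass the test (edgeR adjusted p = 0.878), with an estimate of 0.02 on the log2 scale and an SE of 0.0782. That estimate was -0.06 without GSK3685032 replicate 1.

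**Figure D4:**
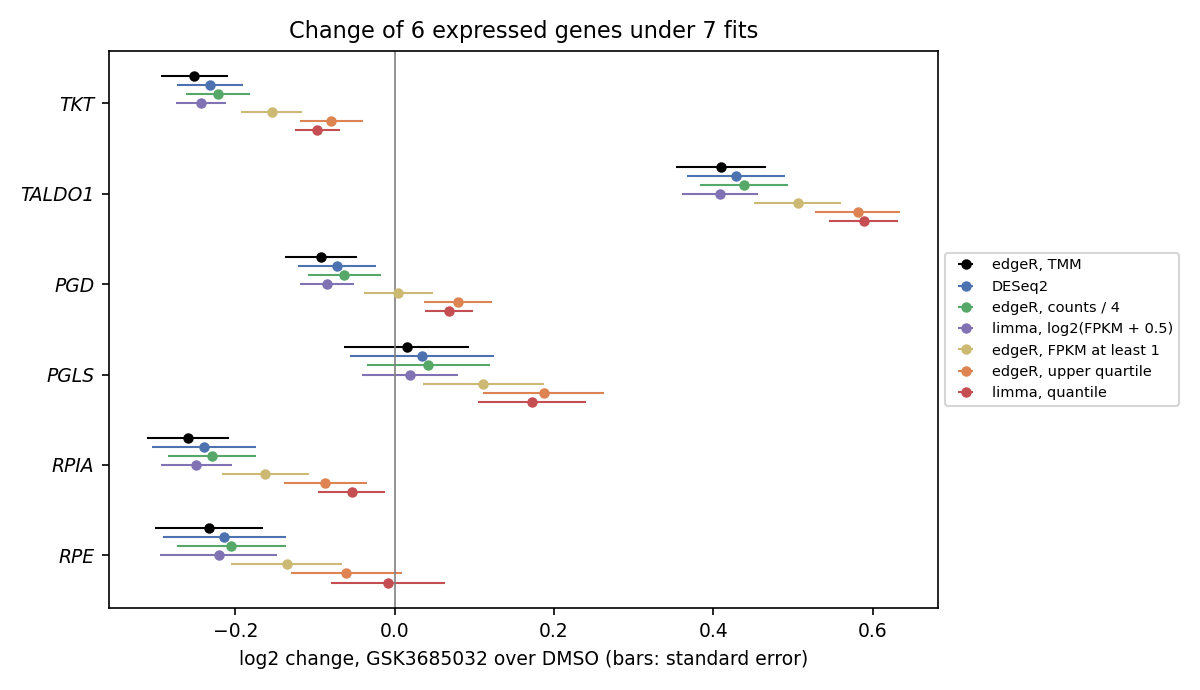
Log2 change of TKT, TALDO1, PGD, PGLS, RPIA and RPE, GSK3685032 over DMSO, under 7 fits; points are estimates and bars standard errors. TALDO1 stays between 0.41 and 0.59, whereas TKT, RPIA and RPE shift toward 0 and PGD passes to the other side of 0 with upper-quartile scaling and quantile normalization.

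Of the 8 genes, 2 were called higher (TKTL1, whose call its choice all but fixes, and TALDO1), 3 were called lower (TKT, RPIA and RPE) and 3 were not called. Over all tested genes 38.1% were called higher and 27.3% lower, and 71.7% did not overlap between the groups, which 6 of the 8 genes also did not. Since most tested genes were called in this experiment, these counts are not read as a result about the pathway. The summed FPKM of the 7 genes besides TKTL1 was 191 ± 4.50 with GSK3685032 and 200.4 ± 1.71 with DMSO. That sum depends on the scaling and on the length used for TKT, and its difference between the groups was not tested. With TKTL1 the sum was 270.1 ± 4.72 with GSK3685032 and 200.4 ± 1.71 with DMSO.

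The order of the levels per exon length was TKTL1, TKT, PGD, TALDO1, RPIA, RPE, PGLS and TKTL2 with GSK3685032, and the same without TKTL1 with DMSO. No neighbours in that order overlapped between their libraries. Per kilobase of principal transcript, TKT came first in both groups, at 178 ± 4.71 with GSK3685032 and 211 ± 2.65 with DMSO, on the FPKM scale rescaled to that length. On that scale TKTL1 was second with GSK3685032, at 114 ± 5.17. TALDO1 stood above PGD with GSK3685032 (99.0 ± 5.50 against 91.6 ± 2.85) and below it with DMSO (74.3 ± 2.25 against 97.2 ± 1.48), although 1 GSK3685032 library of TALDO1, at 93.1, lay below the highest PGD library, at 94.2. PGLS, RPIA and RPE lay between 20.6 and 31.9 in all libraries on that scale. There RPIA overlapped RPE with GSK3685032, and PGLS overlapped both RPIA and RPE with DMSO.

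DNMT1, the target of the inhibitor, measured 13.3, 11.8 and 13.0 FPKM with GSK3685032 and 33.0, 33.6 and 32.2 FPKM with DMSO. Its log2 change was -1.38 (edgeR adjusted p = 5.38e-08). The RNA level does not show whether the enzyme was inhibited. Libraries held 53846028 to 56795603 estimated counts with GSK3685032 and 57451935 to 75304441 with DMSO, or about 13461507 to 18826110 read pairs. Of the tested genes, 7918 were called higher and 5672 lower. With quantile normalization the numbers were 5893 higher and 7342 lower, and with upper-quartile scaling, which moved the median gene by 0.17 (log2), 9312 and 4344. The summed FPKM of 5 B cell markers was 783 to 845 with GSK3685032 and 852 to 870 with DMSO. T cell markers summed to 0.0295 to 0.302 against 0, myeloid markers to 0.737 to 1.01 against 0.568 to 0.798, and fibroblast markers to 0.328 to 0.528 against 0.0988 to 0.132 FPKM. Of the T cell markers only CD3E was measured, at 0 in every DMSO library. Of the fibroblast markers, COL1A2 was at 0.396, 0.393 and 0.240 FPKM with GSK3685032 and at 0.00839, 0.00417 and 0.00514 FPKM with DMSO. COL1A1 went the other way, at 0.0819 against 0.110 FPKM, and was not called, and DCN was too low to be tested. Of the myeloid markers, CD14 was lower (0.423 against 0.505 FPKM). LYZ (0.356 against 0.0865 FPKM) and CSF1R (0.131 against 0.0995 FPKM) were higher, and none of these was called. The part of other cell types in the results was not tested.

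The genes around the pathway were followed in 6 lists of pathway members, with the members called at an edgeR adjusted p of 0.05. Each list's counts stand against 38.1% higher and 27.3% lower over all tested genes, and its median against 0.14. All tested genes together include 1809 (8.70%) without a count in any DMSO library, which can only be higher. None of the counts is called particular to its list. The split between higher and lower moved with the scaling, so it is also given with upper-quartile scaling and with quantile normalization.

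Among enzymes that feed or draw on the pathway's sugars, 2 of 13 tested genes were higher, 5 lower and 6 not called (5 and 4 with upper-quartile scaling, 3 and 4 with quantile normalization), with a median log2 change of 0.04. The lower genes were PRPS1, PRPS2, DERA and, named after their values were seen, the phosphoglucomutases PGM1 (log2 change -0.43) and PGM2 (-0.22, not called under either other scaling). RBKS (0.38), RPEL1 (0.72), PRPSAP1 (0.04) and PRPSAP2 (0.07), also named after their values were seen, did not pass the test. PRPS1, which makes the nucleotide precursor PRPP from ribose 5-phosphate, measured 12.6 ± 0.414 FPKM with GSK3685032 and 28.6 ± 1.19 FPKM with DMSO (log2 change -1.19, edgeR adjusted p = 6.70e-08). Its paralog PRPS2 measured 8.31 ± 0.492 against 15.7 ± 0.446 FPKM (-0.92), and DERA, which cleaves deoxyribose 5-phosphate, 6.90 ± 0.399 against 20.3 ± 0.595 FPKM (-1.56). H6PD, the enzyme of the endoplasmic reticulum that starts the same oxidative reactions there, was higher at 3.25 ± 0.171 against 2.14 ± 0.204 FPKM (0.60, edgeR adjusted p = 2.02e-04). The other higher gene, named after its values were seen, was TIGAR, a phosphatase that diverts sugar phosphates from glycolysis, at 6.43 against 4.25 FPKM (0.59).

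In the synthesis of purines and pyrimidines from PRPP, 5 of 18 tested genes were higher, 9 lower and 4 not called (7 and 8 under both other scalings), with a median of -0.20. GMPS, the last enzyme on the way to GMP, measured 7.77 ± 0.379 FPKM with GSK3685032 and 20.1 ± 0.764 FPKM with DMSO (log2 change -1.38, edgeR adjusted p = 4.61e-08). PPAT, the committed step of purine synthesis, measured 14.1 ± 0.607 against 26.7 ± 1.06 FPKM (-0.92), and PAICS 36.4 ± 0.719 against 62.4 ± 1.38 FPKM (-0.78). All 3, named for the size of their change, were lower in every GSK3685032 library than in any DMSO library. Over all tested genes, 71.7% did not overlap between the groups. ADSS1, the muscle form of adenylosuccinate synthase, was at 2.32 ± 0.113 FPKM with GSK3685032 and 0.00912 ± 0.0158 FPKM with DMSO, from 12 DMSO counts in all, a level too low for a fold. The other higher genes, named after their values were seen, were IMPDH2 (log2 change 0.37), ADSS2 (0.28), APRT (0.19) and CTPS2. APRT was not called in 5 of 17 alternatives. CTPS2 had no count with DMSO and was at 0.273 ± 0.0225 FPKM with GSK3685032. It entered the test only through the GSK3685032 libraries, so it could not be called lower.

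Of other enzymes that make NADPH, 5 of 11 tested genes were higher, 4 lower and 2 not called (7 and 2, then 7 and 3, under the other scalings), with a median of 0.06. IDH1, the cytosolic isocitrate dehydrogenase, measured 6.85 ± 0.294 FPKM with GSK3685032 and 3.78 ± 0.0729 FPKM with DMSO (log2 change 0.85, edgeR adjusted p = 3.89e-06). ALDH1L2, a mitochondrial folate enzyme, measured 5.14 ± 0.483 against 0.0796 ± 0.0150 FPKM (5.95). ME1, the cytosolic malic enzyme, was called higher at 1.38 ± 0.275 FPKM with GSK3685032 and 0.0240 ± 0.0415 FPKM with DMSO, where 1 library held all 20 counts, so no fold is given. The other called genes, named after their values were seen, were NADK (0.14) and NADK2 (0.36), which phosphorylate NAD, on the higher side and NNT (-0.62), IDH2 (-0.31) and MTHFD2L (-0.27) on the lower; IDH2 was not called with upper-quartile scaling or quantile normalization, and MTHFD2L in 7 of 17 alternatives. MTHFD1, a cytosolic folate enzyme, was lower at 8.03 ± 0.551 against 21.9 ± 0.491 FPKM (-1.46, edgeR adjusted p = 5.68e-08).

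Among users of NADPH in the glutathione and thioredoxin systems and their partner enzymes, 11 of 24 tested genes were higher, 9 lower and 4 not called (15 and 4, then 13 and 7), with a median of 0.14. NQO1, a quinone reductase, had 38.1 ± 2.75 FPKM with GSK3685032 and 0.646 ± 0.252 FPKM with DMSO (log2 change 5.89, edgeR adjusted p = 1.96e-08). GPX1, a glutathione peroxidase, had 48.4 ± 2.36 against 9.66 ± 0.344 FPKM (2.32), SOD2, the mitochondrial superoxide dismutase, 39.4 ± 1.27 against 14.2 ± 0.380 FPKM (1.47), and CAT, catalase, 9.78 ± 0.547 against 5.23 ± 0.255 FPKM (0.89). Among the lower genes, named after their values were seen, were PRDX3 at 28.8 ± 0.909 against 41.0 ± 0.797 FPKM (-0.52) and PRDX4 (-0.42), peroxiredoxins, and GLRX, a glutaredoxin (-0.45); these 3 were called in all 17 alternatives. NQO1, SOD2 and CAT are enzymes of oxidant defence that do not use glutathione or thioredoxin themselves.

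Among thiamine transporters and enzymes that use thiamine diphosphate, as transketolase does, 3 of 12 tested genes were higher, 6 lower and 3 not called (3 and 3 under both other scalings), with a median of -0.14. DHTKD1, a dehydrogenase of lysine breakdown, measured 9.09 ± 0.384 FPKM with GSK3685032 and 12.03 ± 0.247 FPKM with DMSO (log2 change -0.41, edgeR adjusted p = 8.51e-05). PDHA1, a subunit of pyruvate dehydrogenase (-0.30), and HACL1 (-0.23) were lower as well; PDHA1 and HACL1 were not called with quantile normalization, and HACL1 not with upper-quartile scaling. The higher genes, named after their values were seen, were SLC19A2, OGDHL and BCKDHB (0.23). SLC19A2, a thiamine transporter, was at 0.538 ± 0.250 FPKM with GSK3685032 and listed at 0 with DMSO. It was at least 41.9-fold higher against the floor of 12 counts over the group. OGDHL, at 0.405 ± 0.0994 FPKM with GSK3685032, also had no count with DMSO. SLC19A2 and OGDHL entered the test only through the GSK3685032 libraries, so neither could be called lower.

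In glycolysis, 6 of 19 tested genes were higher, 8 lower and 5 not called (7 and 6 with upper-quartile scaling, 8 and 8 of 18 with quantile normalization), with a median of -0.09. PGAM1, phosphoglycerate mutase, measured 46.4 ± 0.533 FPKM with GSK3685032 and 93.8 ± 1.06 FPKM with DMSO (log2 change -1.02, edgeR adjusted p = 3.46e-08). ENO1, enolase, measured 294 ± 12.5 against 497 ± 7.52 FPKM (-0.77), its paralog ENO3 1.99 against 3.34 FPKM (-0.75), and LDHA, lactate dehydrogenase, 77.6 ± 1.84 against 123 ± 4.33 FPKM (-0.67). Among the higher genes, named after their values were seen, GAPDH measured 1517 ± 59.6 FPKM with GSK3685032 and 1035 ± 36.9 FPKM with DMSO (log2 change 0.55, edgeR adjusted p = 7.19e-06). PFKL, a phosphofructokinase (0.53), HK1, a hexokinase (0.50), and LDHB (0.49) were higher too, and these 4 were called in all 17 alternatives. PGAM1, ENO1, LDHA and GAPDH have processed copies in the genome that counting may share reads with.

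**Figure D5:**
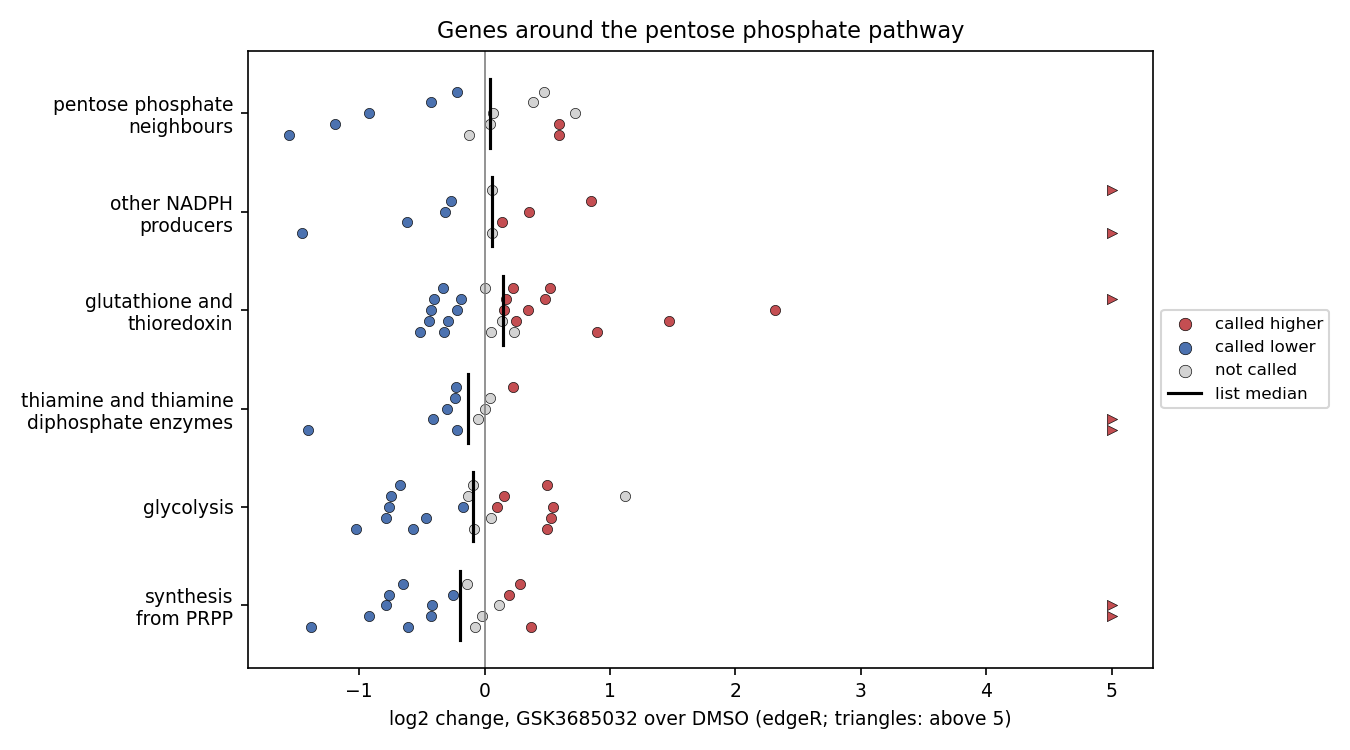
Log2 change of every tested gene in the 6 lists, GSK3685032 over DMSO; each point is a gene, the black bar is the list median, and triangles stand for values above 5. Medians run from -0.20 for synthesis from PRPP to 0.14 for the glutathione and thioredoxin systems, against 0.14 over all tested genes, and every list holds both higher and lower genes.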

How the data were processed

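RNA-seq libraries of SU-DHL-8 cells (3 with GSK3685032, 3 with DMSO) were grouped by their titles. The tools named in the submitters' processing notes, without their roles, are HISAT2 2.2.1, cutadapt 1.9, edgeR, DESeq2 and StringTie 2.1.6; the notes name build mm10, while gene IDs and positions in the table are human (GRCh38). The table the authors deposited holds 1 estimated count column and 1 FPKM column for every library, per the file headers. Counts are whole numbers that peak at multiples of 4, so about 4 counts were taken as 1 read pair. Counting error sets the floor of 3 read pairs, and intervals and floors cover that error only.

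These counts were tested by the quasi-likelihood method of edgeR 4.0.16 in R 4.3.3, after filterByExpr and scaling by TMM factors (0.981 to 1.02). P-values of 20783 genes were adjusted by Benjamini and Hochberg, two-sided, called at an adjusted p of 0.05. The method was first run on simulated counts in which few genes changed, as many up as down. That setting does not cover an experiment in which most genes are called, so it cannot decide between scalings. Alternatives used DESeq2 1.42.0, limma 3.58.1 on log2(FPKM + 0.5, 0.1 or 1), upper-quartile scaling, quantile normalization, other filters, counts divided by 4, a replicate block, GSK3685032 replicate 1 alone, and each library left out. No pair of libraries within a group agreed within sampling noise (variance 3.30 to 6.83 times that of sampling). The groups lay apart on the first principal component, which took 89.1% of the variance.

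The 8 genes and the 6 lists were chosen with earlier results of these data known. Genes named besides the 8 are DNMT1, tested genes within 250 kb of TKTL1 and the 6 nearest to TKTL1 in FPKM. In each list, up to 4 called members of largest change with at least 1 FPKM in a group were also named. Names outside these rules, the overlapping TEX28 among them, were chosen after their values were seen. A few genes that these rules select are not reported here or are given in counts only. Promoters are RefSeq sequences (GRCh38.p14); transcript lengths are from GENCODE release 29.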

Additional observations from a re-analysis of the deposited data

How the results depend on the processing

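Of the 8 genes, TALDO1 kept its call in all 17 alternatives. Upper-quartile scaling gave log2 changes of -0.0792 for TKT (adjusted p = 0.104), -0.0871 for RPIA (0.171), -0.0607 for RPE (0.471) and 0.0799 for PGD in edgeR. Quantile normalization with limma gave -0.0539 for RPIA (adjusted p = 0.301), -0.00847 for RPE (0.926), 0.0685 for PGD and -0.40 for TKTL2 (0.0114, a call). With only genes at 1 FPKM or more in 3 libraries, 4826 of 12395 tested genes were higher and 4414 lower, RPE was at -0.14 (edgeR adjusted p = 0.104) and PGD at 0.00466; fewer genes were tested. The cause of the other shifts was not tested.

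Leaving out each library gave -0.29 to -0.23 for TKT, 0.36 to 0.46 for TALDO1, -0.128 to -0.0618 for PGD, -0.0603 to 0.0526 for PGLS, -0.30 to -0.24 for RPIA, -0.27 to -0.17 for RPE, -1.13 to -0.13 for TKTL2 and a log2 bound of 11.58 to 12.30 for TKTL1. PGLS was at -0.0603 without GSK3685032 replicate 1 and -0.0277 without DMSO replicate 1. GSK3685032 replicate 1 alone, a single library assumed to vary like the others, gave 0.43 for TKTL2 and 12.33 for TKTL1. The TKTL1 difference in log2(FPKM + pseudocount) was 7.31, 9.62 and 6.31 at pseudocounts of 0.5, 0.1 and 1, and 7.23 after quantile normalization. Its share of transketolase was 60.0% by FPKM, 35.8% by counts and 38.9% per principal kilobase. The number of called genes in each of the 6 lists stayed within 1.5 times under all 17 alternatives.

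Replicate numbers did not pair the libraries (correlations of same-numbered libraries 0.000490, 0.0211 and 0.00268); the fit with a replicate block called 7448 genes higher and 5368 lower. TKTL2 had too few counts for a value under 2 settings. Depth limits TKTL2, TEX28 and ME1; the floor for TKTL1 rests on 3 DMSO libraries without a count.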
